A study of Mus musculus with 32 samples.

Results

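Scavenger receptors are surface and endosomal proteins through which macrophages and microglia bind modified lipoproteins, apoptotic cells, lipids and polyanionic debris and carry them to the lysosome. They share ligands rather than one ancestry, and the classes differ in structure: class A receptors (Msr1 and Colec12) are trimers with a collagen-like stalk, class B receptors (Cd36 and Scarb1) span the membrane at both ends, Cd68 belongs to the lysosomal membrane glycoproteins, Olr1 is a C-type lectin-like receptor, and Megf10 is an EGF-repeat engulfment receptor best known from astrocytes. In brain, microglia and macrophages at the vessels and meninges are the usual carriers of most of these receptors.

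The 8 genes Msr1, Cd36, Cd68, Scarb1, Colec12, Cd5l, Olr1 and Megf10 were taken as a named list, and 7 of them were analysed among the 18588 genes of the table. Cd5l, which encodes a secreted scavenger protein of macrophages, was not analysed here. The list groups genes by the receptors' known function, and it was chosen with earlier results of these data known.

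The data were RNAseq libraries of microglia that had been captured with CD11b antibody beads from the forebrains of female mice. The rTg4510 mouse carries human tau with the P301L mutation under a tetracycline-responsive promoter together with the CaMKIIα-driven tTA activator, so that the mutant tau is made postnatally in forebrain neurons, and it can be repressed with doxycycline, of which the labels name none. WT controls were littermates without either transgene. The strain labels of the samples read 129/FVB F1 or rTg4510. Both genotypes were sampled at 2, 4, 6 and 8 months of age with 4 libraries per group, each from forebrains of several pooled animals. The 28 libraries that the study kept after quality control were used, which left 4 libraries per genotype at 2 and 6 months and 3 at 4 and 8 months.

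Each value is a log2 gene signal, normalized so that every library has the same median of 5.63. The signals are not scaled to gene length, so levels were compared between libraries of one gene and never between genes. A gene was called differentially expressed (DEG) when limma gave a Benjamini-Hochberg FDR under 0.05 over all genes and the change was above 1.5 fold. A library was a pool of animals, so the p-values measure the spread between pools, and in bulk RNA fewer cells of a type and less RNA per cell cannot be told apart. Across genes, r between libraries of the same group lay at 0.936 to 0.966. All 12 measured microglia markers were present, with a summed signal of 14.8 to 15.3 in WT and 14.5 to 15.1 in rTg4510 libraries, and of these 0 rose at any age and 1, 3, 4 and 4 fell at 2, 4, 6 and 8 months. Over all genes 0.403%, 4.33%, 8.54% and 5.37% fell at these ages. Neutrophil markers also fell, 7 of 8 of them at both 6 and 8 months, and their part in the results was not tested.

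At 2 months 0 of the 7 receptors were called, against 1.58% of all genes up and 0.403% down; limma gave 1 of the 7 an unadjusted p under 0.05, and moderated variances also called 0. Up-regulated at 4 months were 3 of the 7 (Msr1, Cd68 and Olr1), where 9.47% of all genes rose and 4.33% fell. Up-regulated at 6 months were 5 of the 7 (Msr1, Cd68, Scarb1, Colec12 and Olr1), where 11.3% of all genes rose and 8.54% fell. Up-regulated at 8 months were 4 of the 7 (Msr1, Cd68, Colec12 and Olr1), where 10.5% of all genes rose and 5.37% fell. No receptor was called down at any of the 4 ages, although 1, 5, 5 and 6 of the 7 had an unadjusted p under 0.05 in either direction. The median log2 fold change over the 7 receptors was 0.13, 0.65, 0.83 and 0.78 from 2 to 8 months, beside 0.01, -0.04, -0.04 and -0.01 over all genes.

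**Figure D1:**
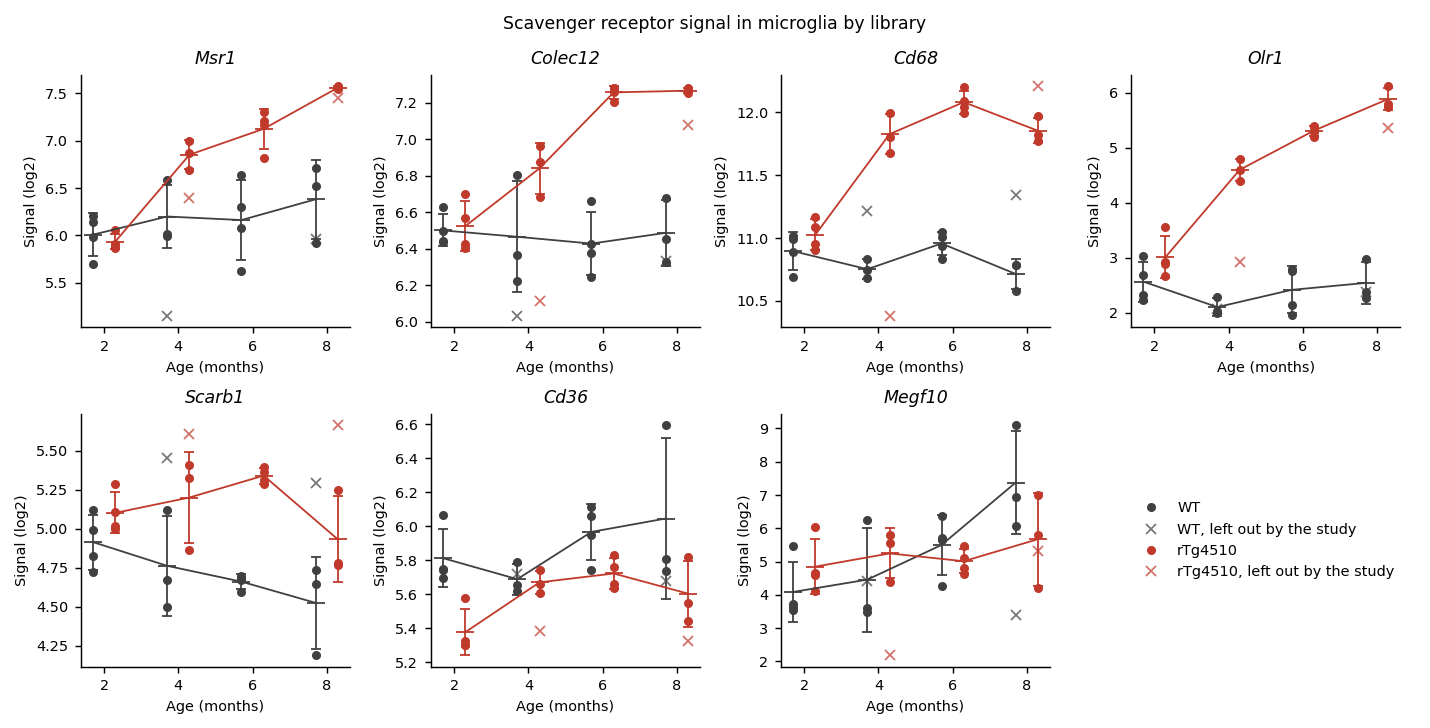
Signal (log2) of each receptor against age in months, with 1 point per library, WT in dark grey and rTg4510 in red; lines join group means, bars are 1 SD over 3 or 4 libraries, and crosses are the 4 libraries that the study left out. The red and grey points of Msr1, Cd68 and Olr1 separate from 4 months on and those of Colec12 and Scarb1 at 6 and 8 months, while those of Megf10 overlap at every age.

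Olr1, the lectin-like receptor for oxidized low-density lipoprotein, had the largest change of the 7 receptors at 4, 6 and 8 months. It lies on chromosome 6 (RefSeq GRCm38.p6, 129479150 to 129507350). The 4 WT libraries of 2 months had a signal of 2.33, 2.23, 2.68 and 3.03, and the rTg4510 libraries of that age 3.56, 2.89, 2.92 and 2.67. These groups overlapped, with 1 of the 4 rTg4510 libraries above all WT. At 4 months the WT libraries gave 2.28, 2.04 and 1.99 and the rTg4510 libraries 4.40, 4.60 and 4.80. At 6 months the signal was 2.14, 2.75, 1.97 and 2.80 in WT and 5.19, 5.37, 5.40 and 5.28 in rTg4510, and at 8 months it was 2.26, 2.98 and 2.38 against 6.12, 5.80 and 5.74. From 4 months on every rTg4510 library lay above every WT library, by a wide margin.

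In WT libraries Olr1 lay near the floor of the table at all ages, within 3 counts of the lowest value of its library, so that a fold against WT is only a lower bound. Set against that floor, the rTg4510 signal of Olr1 was at least 2.80-fold higher at 4 months, at least 4.18-fold higher at 6 months and at least 6.68-fold higher at 8 months. No fold is given at 2 months, where the rTg4510 mean of 3.01 lay below the mean WT floor of 3 counts, at 3.26. Of the rTg4510 libraries of 2 months, replicate 1, at 3.56, passed the floor of its own library (3.51). The fitted log2 fold changes, which depend on how the floor was set, were 2.50 (SE 0.254, FDR 1.9e-07), 2.90 (SE 0.22, FDR 1.24e-09) and 3.34 (SE 0.254, FDR 3.42e-09) at 4, 6 and 8 months, and 0.45 (SE 0.22, FDR 0.323) at 2 months by the limma fit. Ordered by mean, the 4 rTg4510 groups of Olr1 followed their age, from 3.01 ± 0.386 (SD, n = 4) at 2 months to 4.60 ± 0.201 (n = 3), 5.31 ± 0.0919 (n = 4) and 5.88 ± 0.207 (n = 3), and neighbours in that order did not overlap. The 4 WT groups, at means of 2.10 to 2.56, all overlapped their neighbours.

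Among the members only the promoter windows of Olr1, Cd68 and Cd36 were searched for motifs. The promoter of Olr1 is shown because this receptor had the largest change and because its window holds, close to each other, both motifs that had a match. It covers 250 bases before to 50 bases after a RefSeq start, chr6:129507116-129507415, on the minus strand, and capitals mark the matches. That start lies inside the Olr1 gene, which reaches to 129507350, and not at its outer end. Both matches lie inside the gene too, and no other start of Olr1 was searched.
Olr1 promoter: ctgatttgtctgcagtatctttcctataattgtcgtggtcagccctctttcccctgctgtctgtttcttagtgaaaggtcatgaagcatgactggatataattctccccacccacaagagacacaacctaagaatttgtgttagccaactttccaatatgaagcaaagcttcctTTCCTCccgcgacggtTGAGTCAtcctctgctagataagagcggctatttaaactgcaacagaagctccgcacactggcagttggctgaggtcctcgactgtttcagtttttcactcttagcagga
The search for short motifs covered both strands. GAGGAA, part of the site of the myeloid factor PU.1, was found once, in the reverse direction, 76 bases before the start, and TGAGTCA, a site form of AP-1 searched together with TGACTCA, once at 60 bases before it. TCACGTG (MiT/TFE factors) and TTGCGCAA (C/EBP factors) had 0 matches there. Of 32851 promoters of the same length, 28.3% held the PU.1 letters, 5.2% an AP-1 form, 3.77% the MiT/TFE letters and 0.183% the C/EBP letters. A match is a run of letters and was not tested as a binding site.

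Cd68 (macrosialin), a heavily glycosylated protein of late endosomes and lysosomes that is widely used as a marker of phagocytic microglia, rose by a similar amount at 4, 6 and 8 months. Its gene lies on chromosome 11 (69664213 to 69666170 in GRCm38.p6). At 2 months the WT signal was 10.69, 10.99, 11.01 and 10.89, and the rTg4510 signal was 10.95, 10.90, 11.17 and 11.08, and the groups overlapped. At 4 months it was 10.74, 10.83 and 10.68 in WT against 11.80, 11.68 and 11.99 in rTg4510. The 6 month libraries gave 10.83, 10.94, 11.05 and 11.01 against 11.99, 12.04, 12.20 and 12.08, and the 8 month libraries 10.58, 10.78 and 10.78 against 11.77, 11.97 and 11.82. Every rTg4510 library from 4 months on was above every WT library of its age.

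The log2 fold change of Cd68 was 0.13 (SE 0.0828, FDR 0.488) at 2 months, then 1.07 (SE 0.0956, FDR 3.71e-08), 1.12 (SE 0.0828, FDR 8.38e-10) and 1.14 (SE 0.0956, FDR 1.19e-08) at 4, 6 and 8 months, or 2.10-, 2.18- and 2.20-fold. Under quantile normalization of the libraries these fell to 0.64, 0.60 and 0.71 and were still called, and the value at 2 months turned to -0.02. With the 4 libraries that the study left out added, the change at 4 months was 0.60 (FDR 0.0577) and was no longer called; the left-out rTg4510 library of 4 months had the lowest Cd68 signal of all, 10.38.

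For Cd68 the promoter is printed because both motif types occur 2 times in it. The window is chr11:69666121-69666420 on the minus strand, with matches in capitals as above.
Cd68 promoter: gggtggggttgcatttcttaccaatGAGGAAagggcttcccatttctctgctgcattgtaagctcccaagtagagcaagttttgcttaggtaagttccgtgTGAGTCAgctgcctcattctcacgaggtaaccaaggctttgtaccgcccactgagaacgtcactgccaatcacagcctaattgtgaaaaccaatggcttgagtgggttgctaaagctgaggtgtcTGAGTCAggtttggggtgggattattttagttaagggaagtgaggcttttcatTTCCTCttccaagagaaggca
PU.1 letters were found at 225 bases before the start and, in the reverse direction, at 30 bases after it, and the AP-1 form at 149 and 24 bases before it. The MiT/TFE and C/EBP letters had 0 matches in the Cd68 window. For Cd36, whose signal was not called at any age, the window (chr5:17835847-17836146, minus strand) had 0 matches to any of the 4 motifs, which says only that these letters are not in it. That window lies inside the Cd36 gene (17781690 to 17888959) and not at its outer end, and no other start of the gene was searched.

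Msr1, the class A macrophage scavenger receptor, which binds acetylated lipoprotein and fibrillar amyloid, lies on chromosome 8 (39543232 to 39642750 in GRCm38.p6). Its WT libraries spread widely. At 2 months they gave 6.20, 5.70, 5.99 and 6.14, and the rTg4510 libraries 6.06, 5.90, 5.87 and 5.91. At 4 months the values were 6.58, 6.00 and 6.02 against 6.87, 6.69 and 6.9998. The rTg4510 group was above all WT libraries at 4 months, although WT replicate 1 came close to the lowest of them. At 6 months Msr1 was 6.64, 5.62, 6.08 and 6.30 in WT against 7.17, 7.21, 6.82 and 7.30, and at 8 months 6.52, 6.71 and 5.92 against 7.56, 7.54 and 7.58. The 3 rTg4510 libraries of 8 months were tightly grouped (7.56 ± 0.0178, SD, n = 3) and the WT ones were not (6.38 ± 0.414, n = 3).

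For Msr1 the log2 fold change at 2 months was -0.07 (SE 0.191, FDR 0.921), with a 95% confidence interval of -0.47 to 0.33. It was 0.65 (SE 0.221, FDR 0.037) at 4 months, 0.96 (SE 0.191, FDR 0.000445) at 6 months and 1.18 (SE 0.221, FDR 0.000319) at 8 months, the last a 2.26-fold increase. The call at 4 months had the highest FDR of the 12. It was lost with a term for the replicate number (FDR 0.0509), in the fit of the 2 groups alone (FDR 0.149), and without WT replicate 2 (0.55, FDR 0.137), WT replicate 4 (0.56, FDR 0.136), rTg4510 replicate 1 (0.64, FDR 0.08) or rTg4510 replicate 4 (0.58, FDR 0.124) of that age. At 8 months the fit of the 2 groups alone gave an FDR of 0.0551.

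Colec12, a collectin with a scavenger receptor stalk that is also made by vessel and border cells, was called at 6 and 8 months. At 2 months its WT signal was 6.44, 6.44, 6.63 and 6.49 and its rTg4510 signal 6.70, 6.40, 6.57 and 6.43, which interleave. The 4 month libraries gave 6.81, 6.37 and 6.22 against 6.69, 6.87 and 6.96. WT replicate 1 of 4 months lay inside the rTg4510 range. At 6 months the WT libraries were at 6.66, 6.25, 6.43 and 6.37 and the rTg4510 libraries at 7.28, 7.28, 7.26 and 7.21, and at 8 months they were at 6.45, 6.68 and 6.33 against 7.28, 7.26 and 7.26. The rTg4510 values of these ages lay within a few hundredths of each other and above all WT values.

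The log2 fold change of Colec12 was 0.02 (SE 0.108, FDR 0.959) at 2 months and 0.38 (SE 0.124, FDR 0.0329) at 4 months, which is under 1.5 fold. It was 0.83 (SE 0.108, FDR 2.81e-06) at 6 months and 0.78 (SE 0.124, FDR 5.14e-05) at 8 months, or 1.78- and 1.72-fold. The GENCODE M21 annotation places other transcripts and 2 processed pseudogenes, 1 per strand, inside the Colec12 gene. Some of these transcripts are on its own strand, with an overlap of up to 3242 bases. Scarb1 also has an overlapping gene on its own strand, by 2764 bases. Whether reads were assigned by strand is not given in the sources used here.

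Scarb1, the class B receptor for high-density lipoprotein that moves cholesteryl esters and free cholesterol across the membrane, lies on chromosome 5 (125277087 to 125341094 in GRCm38.p6). Its signal was 4.99, 4.82, 4.72 and 5.12 in WT and 5.11, 4.995, 5.28 and 5.02 in rTg4510 at 2 months, and 4.67, 5.12 and 4.50 against 5.41, 4.86 and 5.33 at 4 months. At both ages the groups overlapped. At 6 months it was 4.67, 4.69, 4.59 and 4.68 against 5.37, 5.29, 5.40 and 5.31, and at 8 months 4.19, 4.73 and 4.65 against 4.78, 5.25 and 4.76. The groups were apart at both of these ages, widely at 6 months and by a few hundredths at 8 months.

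Only the 6 month change of Scarb1 passed both thresholds, at 0.68 on the log2 scale (SE 0.147, FDR 0.000991), and at 0.54 on a scale with a pseudocount of 8 it was under 1.5 fold. At 2, 4 and 8 months the values were 0.19 (SE 0.147, FDR 0.61), 0.44 (SE 0.169, FDR 0.0694) and 0.41 (SE 0.169, FDR 0.086). The 4 month value was called without WT replicate 2 (0.62, FDR 0.0139) or without rTg4510 replicate 2 (0.61, FDR 0.0171) of that age. The differences of its effect between 2 and 4, 4 and 6, 6 and 8, and 2 and 8 months were not called, and that between 2 and 6 months was not tested, so the call at 6 months alone does not show that this age differs from the others. From 2 to 8 months the WT mean went from 4.91 ± 0.177 (SD, n = 4) to 4.52 ± 0.293 (n = 3), an age change of -0.39 with an FDR of 0.178.

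Cd36, the class B receptor for long-chain fatty acids, oxidized lipoprotein and thrombospondin, lies on chromosome 5 (17781690 to 17888959 in GRCm38.p6) and was called at none of the 4 ages. The fitted values were nonetheless all below 0, although that of 4 months turned above 0 without WT replicate 1 or rTg4510 replicate 4 of that age. At 2 months the WT libraries had 6.06, 5.74, 5.70 and 5.75 and the rTg4510 libraries 5.58, 5.30, 5.30 and 5.33, so all 4 rTg4510 libraries lay below all WT. At 4 months the values were 5.79, 5.62 and 5.65 against 5.66, 5.74 and 5.61, at 6 months 5.95, 5.74, 6.06 and 6.11 against 5.64, 5.76, 5.66 and 5.83, and at 8 months 5.73, 6.59 and 5.81 against 5.55, 5.82 and 5.44. The groups overlapped at 4, 6 and 8 months. The log2 fold changes were -0.44 (SE 0.142, FDR 0.0808), -0.02 (SE 0.164, FDR 0.955), -0.24 (SE 0.142, FDR 0.196) and -0.44 (SE 0.164, FDR 0.0528) from 2 to 8 months. Each was under 1.5 fold, the largest being 1.35-fold lower at 2 months and 1.36-fold lower at 8 months. Over 7 alternative settings the FDR ran from 0.0179 to 0.187 at 2 months and from 0.01 to 0.415 at 8 months. The changes stayed under 1.5 fold in these settings, so none was a call. The value at 8 months became a call without WT replicate 1 of that age (-0.60, FDR 0.0141) and fell to -0.17 (FDR 0.379) without WT replicate 2, the highest library at 6.59. Replicate 1 of 2 months stood above the other libraries of its own group in both genotypes.

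Megf10, which binds C1q and takes part in synapse and corpse removal by astrocytes, varied far more between libraries than the other 6 receptors. At 2 months it had a signal of 5.45, 3.54, 3.73 and 3.62 in WT and 4.59, 6.04, 4.65 and 4.12 in rTg4510, and at 4 months 3.62, 3.49 and 6.26 against 5.80, 5.55 and 4.39. At 6 months it had 5.72, 4.25, 5.65 and 6.37 against 5.12, 5.48, 4.64 and 4.81, and at 8 months 9.09, 6.95 and 6.08 against 6.99, 5.81 and 4.22. The groups overlapped at every age. The log2 fold changes were 0.76, 0.79, -0.49 and -1.70 with 95% confidence intervals of -0.79 to 2.31, -1.002 to 2.58, -2.04 to 1.06 and -3.49 to 0.09, and no age had an FDR below 0.163. Leaving out 1 library at a time gave 0.37 to 1.22, 0.31 to 1.69, -0.90 to -0.20 and -2.36 to -0.84 at the 4 ages, the value nearest 0 being reached without rTg4510 replicate 2 at 2 months, WT replicate 2 at 4 months, WT replicate 4 at 6 months and WT replicate 1 at 8 months. The values farthest from 0 at 2, 4 and 6 months were reached without WT replicates 1, 4 and 2 of those ages. With all 32 libraries the values at 4 and 8 months were 0.034 and -0.79.

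**Figure D2:**
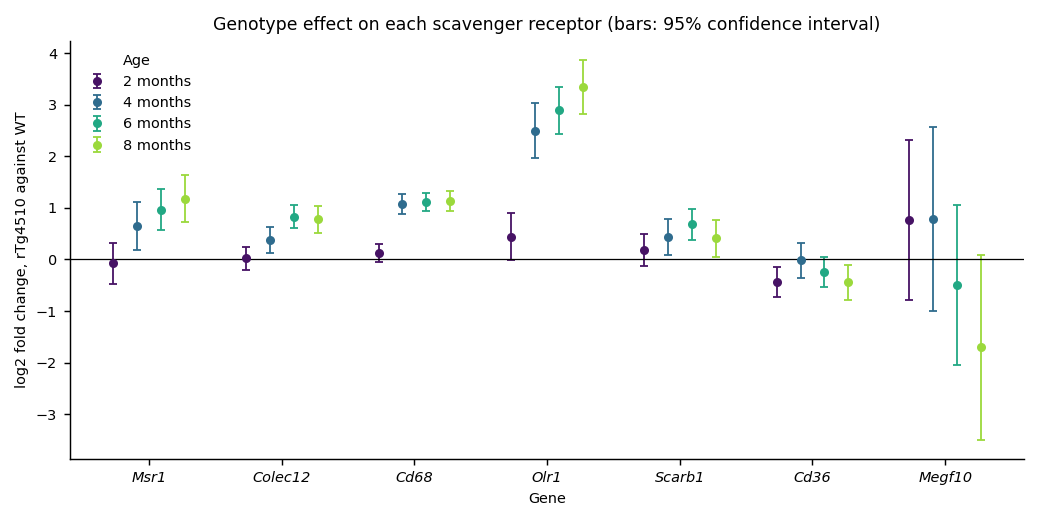
Log2 fold change of rTg4510 against WT for each receptor (points) at 2, 4, 6 and 8 months (colours), with the 95% confidence interval of the limma fit (bars). Olr1 reaches 3.34 at 8 months, Cd68 is level at 1.07 to 1.14 from 4 months on, and the bars of Megf10 cross 0 at all 4 ages.

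Whether the genotype effect itself changed with age was tested as the difference of the effects at 2 ages, and differences that have an age in common share its libraries. Between 2 and 4 months 2 of the 7 receptors grew in effect, against 4.66% of all genes called either way. These were Cd68, by 0.94 (SE 0.126, FDR 7.8e-05), and Olr1, by 2.05 (SE 0.336, FDR 0.000589), while the value of Msr1 was 0.73 (SE 0.292, FDR 0.154) and that of Colec12 0.35 (SE 0.164, FDR 0.24). Between 2 and 8 months 4 of the 7 grew, against 6.7% of all genes. They were Msr1, by 1.25 (SE 0.292, FDR 0.00768), Cd68, by 1.01 (SE 0.126, FDR 2.35e-05), Colec12, by 0.76 (SE 0.164, FDR 0.00458), and Olr1, by 2.90 (SE 0.336, FDR 8.6e-06). The Cd68 differences were not called when the 4 left-out libraries were added (0.47, FDR 0.499 and 0.94, FDR 0.125), and the Olr1 values rest on WT groups at the floor.

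From 4 to 6 months limma called 0 of the 7 differences, with 1 at an unadjusted p under 0.05 (Colec12, 0.45, FDR 0.405), against 0.156% of all genes. From 6 to 8 months it called 0 of 7, with 0 at an unadjusted p under 0.05, against 0% of all genes, 841 of which had an unadjusted p under 0.05. Moderated variances gave 0 calls in both steps too. The 6 to 8 month difference of Msr1 was 0.22 with a 95% confidence interval of -0.39 to 0.82, and that of Olr1 0.45, so growth of the effect in this step was not detectable with 3 or 4 libraries a group.

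Changes with age were called mainly in rTg4510. From 2 to 4 months 3 of the 7 rose in rTg4510 microglia, against 6.39% of all genes called, with log2 changes of 0.92 for Msr1 (FDR 0.004), 0.80 for Cd68 (FDR 2.58e-06) and 1.59 for Olr1 (FDR 8.56e-05). From 2 to 8 months 4 of the 7 rose there, against 10.5% of all genes, namely Msr1 by 1.63 (FDR 6.32e-06), Cd68 by 0.83 (FDR 7.75e-07), Colec12 by 0.74 (FDR 7.36e-05) and Olr1 by 2.88 (FDR 1.77e-08). With quantile normalization the 2 to 4 month rise of Cd68 was 0.54 and under 1.5 fold, and with the left-out libraries it was 0.44 (FDR 0.222). Of the 4 to 6 month steps in rTg4510 limma called 0 of 7 (0.818% of all genes), with 3 at an unadjusted p under 0.05, and of the 6 to 8 month steps 0 of 7 (0.00538% of all genes), with 4 at an unadjusted p under 0.05.

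In WT microglia the 2 to 4, 4 to 6 and 6 to 8 month steps gave 0 calls each among the 7 receptors, with 0, 1 and 2 at an unadjusted p under 0.05 by limma, against 0.0484%, 0.00538% and 0% of all genes. From 2 to 8 months 1 of the 7 was called in WT, against 1.27% of all genes. This was Megf10, which rose by 3.29 on the log2 scale (SE 0.802, FDR 0.024). Leaving out WT replicate 1 of 8 months, the library at 9.09, gave 2.43 (FDR 0.153), and the call was also lost without WT replicate 2 of 8 months (FDR 0.0564) or WT replicate 2, 3 or 4 of 2 months (FDR 0.064, 0.0642 and 0.0605). With the 4 left-out libraries it was 2.29 (FDR 0.416).

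Markers of other brain cells moved with Megf10. Across the 28 libraries the Megf10 signal correlated with the mean of 8 oligodendrocyte markers at r = 0.815, of 6 oligodendrocyte precursor markers at 0.749 and of 11 astrocyte markers at 0.611, and after the group means were taken off the values were 0.836, 0.824 and 0.659. Within groups Megf10 also had r = 0.674 with mural and fibroblast markers, 0.558 with neuron markers and -0.693 with microglia markers. These correlations are descriptions over libraries that share a capture and a depth each. WT replicate 1 of 8 months, the highest in Megf10, had a summed oligodendrocyte marker signal of 11.04 and a summed astrocyte marker signal of 11.9, where the other WT libraries of that age had at most 9.24 and 10.7. Over all groups the summed oligodendrocyte signal spanned 7.51 to 11.04 in WT and 7.50 to 9.98 in rTg4510. Of the 8 markers 0 were called at any age, with median log2 fold changes of -0.96 and -0.89 at 6 and 8 months. Astrocyte markers gave 1 of 11 up and 2 down at 6 months, and 1 up and 3 down at 8 months. Of 6 precursor markers 1, 2 and 1 were called up at 4, 6 and 8 months and 0, 1 and 0 down. Over all genes 9.47%, 11.3% and 10.5% were called up and 4.33%, 8.54% and 5.37% down at these ages. The part of these cells in the Megf10 values was not tested.

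Macrophages at the borders of the brain also carry CD11b and several scavenger receptors. Within groups the signal of Colec12 followed the mean of 11 border macrophage markers (Mrc1, Lyve1, Cd163 and others) at r = 0.849, that of Msr1 at 0.649 and that of Cd36 at 0.531, over 28 libraries. With the group means left in, r was -0.305 for Colec12, -0.27 for Msr1 and 0.571 for Cd36. WT replicate 1 of 4 months, the highest WT library of its age in Msr1 and Colec12, also had the highest border macrophage mean of all, 7.82. Between genotypes 0.403%, 4.33%, 8.54% and 5.37% of all genes were called down at 2, 4, 6 and 8 months. Of the 11 markers, 0, 2, 3 and 2 were called down at these ages and 0 up at any age. Their summed signal was 10.9 to 11.7 in WT and 10.6 to 11.1 in rTg4510 from 4 months on. Cd68, Scarb1 and Olr1 correlated with them within groups at -0.03, 0.02 and 0.26. The part of these cells in the values of Msr1, Colec12 and Cd36 was not tested.

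**Figure D3:**
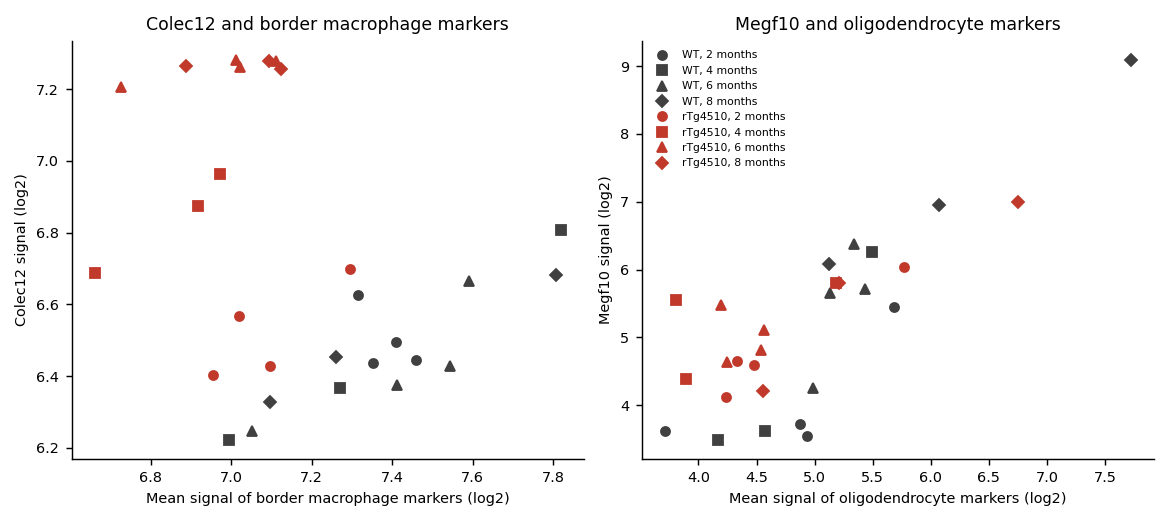
Signal of Colec12 against the mean signal of 11 border macrophage markers (left) and of Megf10 against the mean signal of 8 oligodendrocyte markers (right), all log2, with 1 point per library (WT dark grey, rTg4510 red, shape by age). Colec12 is at 7.21 or more in the rTg4510 libraries of 6 and 8 months and lower in all others. Within groups it rises with the markers (r = 0.849), while r over all 28 libraries is -0.305. The single library at the upper right of the Megf10 panel is WT replicate 1 of 8 months at 9.09.

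Among the receptors themselves, Olr1 and Cd68 had r = 0.93 over the 28 libraries, Olr1 and Colec12 0.917, and Msr1 and Colec12 0.902. The libraries of these 4 genes share the genotype and age groups. Scarb1 had its highest value with Cd68 (0.682), and Cd36 and Megf10 had none above 0.313 with any other receptor.

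The genes whose signal was most like that of a receptor over the 28 libraries were sought among 13401 genes with a symbol and a mean signal above the 25th percentile. For Cd68 they were Nceh1 (r = 0.98), Abcg1 (0.978) and Ctsa (0.978), which encode a cholesteryl ester hydrolase, a sterol exporter and a lysosomal carboxypeptidase. For Msr1 they were Lyz2 (0.936), H2-K1 (0.932) and Lilr4b (0.93), and for Colec12 Adipor1 (0.939), Emp3 (0.938) and Lyz1 (0.938). Lyz1 and Lyz2 are near-identical lysozyme genes, and H2-K1 and Lilr4b belong to families of close copies, so these are uncertain. Scarb1 was most like Grcc10 (0.849), Ramp1 (0.841) and Arpc3 (0.839), and Cd36 like Gm3363 (0.731), Cp (0.73) and Aoah (0.725). Megf10 was most like Cryab (0.861), Elavl3 (0.815) and Mobp (0.811), of which Cryab and Mobp are abundant in oligodendrocytes and Elavl3 marks neurons. Group means were left in for all of these r, so genes that change alike with genotype and age have a high r.

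Of 26 other scavenger receptor genes, 19 were measured, and 6 of them rose at each of 4, 6 and 8 months. The counts of 19 called up were 1, 6, 6 and 6 and called down 1, 1, 2 and 2 from 2 to 8 months, and the medians of the list were 0.05, -0.06, -0.11 and -0.03, beside 0.01, -0.04, -0.04 and -0.01 over all genes. Of all genes, 1.58%, 9.47%, 11.3% and 10.5% were called up and 0.403%, 4.33%, 8.54% and 5.37% down. Fitted to the 4 month libraries alone, 4 of the 19 were called in place of 7. Clec7a (dectin-1, the receptor for beta-glucans) went from 5.21 to 5.58 in WT to 7.80 to 8.40 in rTg4510 at 4 months and had log2 fold changes of 2.73 (FDR 4.2e-08), 3.14 (FDR 2.7e-10) and 3.16 (FDR 4.71e-09) at 4, 6 and 8 months. Cxcl16, a membrane chemokine that also takes up oxidized lipoprotein, was the only one up at 2 months (0.66, FDR 0.00538, WT 5.70 to 6.15 and rTg4510 6.42 to 6.68) and reached 2.00, 1.99 and 2.11.

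Cd5, a lymphocyte glycoprotein with scavenger-type cysteine-rich domains, was called at 1.63, 1.14 and 1.52 at 4, 6 and 8 months, with WT libraries of 8 months at the floor, where it was at least 2.32-fold higher. Lgals3bp, a secreted protein of the same domain family, was called at 1.31, 1.29 and 1.53, and Cd14, the co-receptor for lipopolysaccharide, at 0.91, 1.21 and 1.24. Lamp1, a lysosomal relative of Cd68, was called at 0.88, 0.94 and 0.93 with groups far apart, for example 10.5 to 10.6 in WT and 11.5 to 11.6 in rTg4510 at 6 months. The genes called down, named here after their values were seen, were Fcrls at 2 and 8 months (-0.62 and -0.79), Stab1 at 4, 6 and 8 months (-0.73, -0.85 and -0.77) and Ager at 6 months (-0.74). Stab1 also stands in the border macrophage list and Fcrls in the microglia list.

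**Figure D4:**
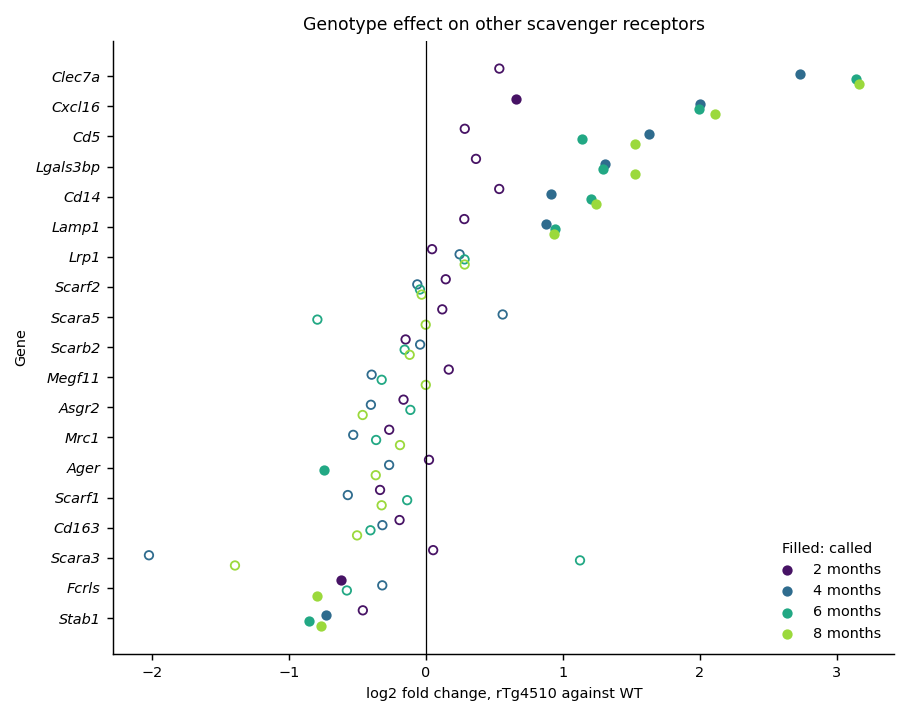
Log2 fold change of rTg4510 against WT (horizontal axis) for the 19 other scavenger receptor genes measured, at 2, 4, 6 and 8 months (colours); filled points passed both thresholds. Clec7a reaches 3.16 at 8 months and is followed by Cxcl16, Cd5, Lgals3bp, Cd14 and Lamp1, while Stab1, Fcrls and Ager are the genes with filled points below 0.

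Ligands and partners of the receptors were described by lists. The shares of all genes called up from 2 to 8 months were 1.58%, 9.47%, 11.3% and 10.5%. Of 12 measured ligands, 1, 3, 5 and 5 were called up and 0 down from 2 to 8 months (medians 0.15, 0.07, 0.36 and 0.06). Apoe, the lipoprotein carrier bound by several of these receptors, went from 9.82 to 10.1 in WT and 10.3 to 10.7 in rTg4510 at 2 months (0.60, FDR 0.00646) to 9.64 to 10.05 and 13.4 to 13.5 at 6 months (3.60, FDR 4.31e-14). C1qb, a chain of the complement component that marks debris and that Megf10 binds, was called at 0.64, 0.79 and 0.74 at 4, 6 and 8 months. Thbs1, which Cd36 binds, was called at 0.71 (FDR 0.000791) and 0.78 (FDR 0.00164) at 6 and 8 months. The ligand count was 1 at 4 months and 3 at 8 months with all 32 libraries, and 0, 3 and 2 at 2, 6 and 8 months under quantile normalization.

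For Cd36 the list of signalling partners and fatty acid handling genes had 15 measured members, and 2, 7, 7 and 8 of them were called up and 0 down, with medians of 0.10, 0.52, 0.56 and 0.69. Of all genes, 1.58%, 9.47%, 11.3% and 10.5% were called up. Lpl, the lipase that frees fatty acids from lipoprotein, was called at every age with 1.53, 4.74, 4.07 and 3.90 (FDR 2.29e-06 at 2 months). Fabp5, a cytosolic fatty acid binder, was called at 2.96, 3.34 and 3.32 at 4, 6 and 8 months. Fabp3, its relative, lay at the floor in WT at these ages and was at least 3.46-, 3.90- and 4.84-fold higher. Cd36 itself was not called at these ages, as given above.

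Of 10 genes that handle sterols along with Scarb1, 2, 5, 6 and 7 were called up and 0 down, with medians of 0.13, 0.74, 0.77 and 0.78. The shares of all genes called up were 1.58%, 9.47%, 11.3% and 10.5%. Apoc1, a small apolipoprotein, was called at 0.83, 3.92, 4.44 and 4.72 from 2 to 8 months, and at 4 months, where WT was at the floor, it was at least 11.5-fold higher. Npc2, which hands cholesterol out of the lysosome, was called at 0.60, 1.30, 1.52 and 1.42. Nceh1 was not called at 2 months (0.55, under 1.5 fold) and was called at 1.63, 1.92 and 1.91. The 2 month count of this list was 0 with all 32 libraries or quantile normalization and 1 with the pseudocount or the 2 groups alone.

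Of 12 measured signalling genes downstream of engulfment receptors, 0 were up at any age and 0, 1, 1 and 1 were down, the 1 being Elmo1, an activator of Rac1, with -0.72 (FDR 3.07e-09), -0.96 (FDR 2.31e-12) and -0.93 (FDR 7.09e-11) at 4, 6 and 8 months. Its signal at 6 months was 9.64 to 9.67 in WT and 8.64 to 8.74 in rTg4510. Over all genes 0.403%, 4.33%, 8.54% and 5.37% were called down from 2 to 8 months, so 1 of 12 is not read as a trait of this list.

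Of 16 nuclear receptors and factors known to control scavenger receptor genes, 0, 1, 3 and 2 were called up and 0, 1, 1 and 1 down. Over all genes 1.58%, 9.47%, 11.3% and 10.5% were called up and 0.403%, 4.33%, 8.54% and 5.37% down from 2 to 8 months. Counts this small out of 16 are not read as a trait of the list. Maf was the gene called down, with -0.73, -0.92 and -0.88 at 4, 6 and 8 months. Mitf, a member of the MiT/TFE family that drives lysosomal genes, was called up at 0.62, 0.78 and 0.79. Nfe2l2, a factor of the oxidative stress response, was called at 6 and 8 months (0.62 and 0.76), and Cebpb, named here after its values were seen, at 6 months (0.63, FDR 0.0137). The calls of this list in either direction numbered 1 in place of 0 at 2 months and 2 in place of 4 at 6 months under quantile normalization, and 1 in place of 2 at 4 months with the pseudocount of 8.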

How the data were processed

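Microglia RNA of 32 libraries was sequenced (NuGEN Ovation V2 libraries, HiSeq2000). The deposited values are log2 gene signals, which the authors built from exon read sums: an exon under 10 counts in over 80% of samples was dropped, the remaining exons were joined to 1 value per gene by robust linear modelling, and libraries were scaled to a common median. The submitters' processing notes name the build GRCm38; the aligner and annotation are not given in the sources used here. Genotype, age and replicate number came from the sample titles. The 4 libraries that failed the study's quality control (replicate 3 of both genotypes at 4 months and replicate 4 of both at 8 months) entered only the alternatives.

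No read totals are given, so depth is unknown and no counting interval was computed; the 3 or 4 libraries per group limit the precision. Of 21405 low values, 38.4% fell on log2(count + 1.5) for a whole count and 30.3% midway between whole counts, within 0.02 counts, taking the minimum of the library as a count of 0. A group counted as near the floor if none of its libraries exceeded its own minimum by 3 counts. These steps were read from the values and are stated by no source.

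Computed here were a linear model per gene with 8 group means and unmoderated variances (limma 3.58.1, R 4.3.3, data.table version 1.17.8; 20 residual degrees of freedom), contrasts of genotype, of age and of genotype effects between ages, and Benjamini-Hochberg FDR within a contrast over 18588 genes. DEGs had to pass both an FDR of 0.05 and 1.5 fold. No gene was filtered out. Correlations are Pearson's r and carry no test. A list's summed signal is log2 of the sum of linear signals, and its mean signal the mean of log2 signals. Gene names came from RefSeq GRCm38.p6 (17828 of 18588 Entrez numbers, 95.9%), overlaps from GENCODE M21, and promoters from RefSeq GRCm38.p6, 250 bases before to 50 after a start; 3 of the members, Olr1, Cd68 and Cd36, are used from there. Python 3.11.15, pandas 2.3.3, numpy 2.4.6 and matplotlib 3.10.9 were used. Simulated data with known changes served as a check of the fit.

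Members, gene lists and tests were chosen with earlier results of these data known. All members were named; of other scavenger receptors at most 6 genes and of other lists at most 3 were named, those with the largest change at any age among called genes, and for each member not near the floor the 3 genes of highest r. Beyond this rule Fcrls, Stab1, Ager and Cebpb were named after their values were seen.

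Alternatives were all 32 libraries, the 2 groups of an age alone, moderated variances, quantile normalization, a pseudocount of 8 on the linear scale, genes above the 25th percentile, a replicate block, and each of 28 libraries left out. Both genotypes share replicate numbers. Deviations of same-numbered libraries from their group means correlated across genes at 0.13 to 0.153 at 6 months and 0.15 to 0.291 at 8 months. Unlike numbers gave -0.127 to 0.0913 and -0.26 to -0.0281, so numbers were taken, from the values alone, to pair libraries at these ages. At 2 months same numbers gave 0.0649 to 0.167 and unlike numbers -0.194 to 0.0816. At 4 months the ranges were -0.0999 to 0.124 and -0.0709 to 0.154. The ranges overlapped at 2 and 4 months, and no pairing was taken there. The main fit holds no term for pairs at any age.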

Additional observations from a re-analysis of the deposited data

Results flagged for a closer look

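Chance flags about 1 in 20 groups of 4 libraries, and 28 such groups were examined for a library apart from the rest. In WT at 2 months, Cd36 in replicate 1 was 6.06 where the other libraries lay at 5.70 to 5.75. In rTg4510 at 2 months, Cd36 in replicate 1 was 5.58 where the others lay at 5.30 to 5.33. Megf10 in WT replicate 1 of 2 months was 5.45, against 3.54 to 3.73 in the others. All 3 are replicate 1 libraries of 2 months, and no cause was tested.

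The genotype effect grew between ages, by the test of the difference, for Msr1 from 2 to 8 months (1.25 on the log2 scale), Cd68 from 2 to 4 months (0.94) and from 2 to 8 months (1.01), Colec12 from 2 to 8 months (0.76), and Olr1 from 2 to 4 months (2.05) and from 2 to 8 months (2.90). The Cd68 differences were not called with the 4 left-out libraries added (FDR 0.499 and 0.125). Those of Olr1 rest on WT groups at the floor.

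Of the libraries that the study left out, the rTg4510 library of 8 months (replicate 4) lay above all kept WT libraries of its age in Msr1 (7.45 against at most 6.71), Cd68 (12.21 against 10.78), Scarb1 (5.66 against 4.73), Colec12 (7.08 against 6.68) and Olr1 (5.35 against 2.98). The left-out rTg4510 library of 4 months (replicate 3) did so in Scarb1 (5.61 against 5.12). Its Cd68 signal was 10.38, below all kept libraries. Its Olr1 signal was 2.92 against 2.28, but lay only 1.27 counts above the lowest value of that library, within the floor of 3 counts. The kept rTg4510 libraries of 4 months had 9.3, 12.7 and 13.8 counts of Olr1 on that scale. The left-out WT libraries were at 11.21 (4 months) and 11.34 (8 months) in Cd68, above all kept WT libraries.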

How the results depend on the processing

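Signs are of log2 changes, and every value that changed sign below was uncalled in both fits. With all 32 libraries 1 receptor was called in place of 2 for the change of effect from 2 to 4 months, 0 in place of 1 for WT from 2 to 8 months, and 1 in place of 0 for rTg4510 from 4 to 6 months (Colec12, 0.60, FDR 0.0398). Signs then turned for differences of effect (Megf10 4 against 2 months -0.73, Cd68 8 against 6 months -0.054, Cd36 8 against 2 months 0.016), for WT ages (Msr1 4 against 2 months -0.070, Scarb1 0.021; Msr1 6 against 4 months 0.22, Colec12 0.071; Cd36 8 against 6 months -0.013, Scarb1 0.056) and for rTg4510 ages (Megf10 4 against 2 months -0.37 and 6 against 4 months 0.53, Colec12 8 against 6 months -0.037, Scarb1 8 against 2 months 0.013). In the fit of 2 groups alone, 4 other scavenger receptors were called at 4 months. Quantile normalization turned Cd68 at 2 months (-0.023), Cd68 6 against 4 months (-0.041), Olr1 in WT 8 against 6 months (-0.068) and Colec12 in WT 8 against 2 months (0.017), and a pseudocount of 8 turned Megf10 4 against 2 months (-0.0070). Above the 25th percentile Olr1 dropped out, which left 1 receptor called for the change from 2 to 4 months. Moderated variances changed no call among the receptors.

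Leaving out single libraries gave ranges that cross 0 for Colec12 at 2 months (-0.034 to 0.066), Cd36 at 4 months (-0.055 to 0.033) and differences of effect: Megf10 4 against 2 months (-0.46 to 0.93), Cd68 6 against 4 months (-0.024 to 0.135), Cd36 8 against 2 months (-0.16 to 0.27), and 8 against 6 months Msr1 (-0.017 to 0.39), Cd36 (-0.35 to 0.077), Cd68 (-0.054 to 0.056) and Colec12 (-0.13 to 0.047). Other scavenger receptors called at 2 months ranged from 1 to 2. The causes were not tested. Adding a replicate block changed 1 call among the receptors, Msr1 at 4 months (FDR 0.0509); it could not be fitted for age effects within a genotype, since numbers pair libraries within an age only. The number of libraries, and for Olr1 the floor, limit these values.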
